A study of Mus musculus with 6 samples.

Results

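Fetal hepatocytes lacking Cnot3 were examined for the mRNAs of 5 enzyme families that conjugate, hydrolyse or oxidise drugs, hormones and metabolites: the UDP-glucuronosyltransferases (Ugt), the cytosolic sulfotransferases (Sult), the glutathione S-transferases (Gst), the carboxylesterases (Ces) and the aldehyde dehydrogenases (Aldh). A gene was a member when its symbol began with one of these family names, and each gene was represented by the probe set, a group of short probes on the array, that named it alone and was brightest over all arrays. Members had to exceed the 20th percentile of an array on at least 1 array. Of 76 family genes that had such a probe set, 66 passed (7 Ugt, 9 Sult, 20 Gst, 11 Ces and 19 Aldh genes), of 16499 genes that passed in the whole series. The 10 genes left out were Aldh3a1, Ces1f, Ces1g, Sult1c1, Sult1e1, Sult3a1, Sult6b1, Ugt2a3, Ugt2b37 and Ugt2b38. The brightest of them, Ces1g, reached an intensity of 20.2, and the member just inside the limit, Ces1e, reached 27.4. Of the members, 63 exceeded the 20th percentile on all 6 arrays. Only 1 member, Ces1e, passed through 1 genotype alone. The Ugt1a genes were not measured one by one, because their 3 probe sets each carry 8 symbols.

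The cells were Cnot3KO and control hepatocytes from livers of E16.5 mouse embryos, cultured with oncostatin M and dexamethasone and collected at 0, 6 and 12 h of actinomycin D (ActD), which blocks transcription. Cnot3KO cells carry floxed Cnot3 alleles and Alb-Cre, in which the albumin promoter drives Cre recombinase, so that deletion starts in hepatoblasts and was, per the study, incomplete in the liver at this age and efficient by the end of culture. Control cells are labelled wild type, while the methods allow floxed alleles without Cre, or Alb-Cre with at least 1 intact allele. All groups received oncostatin M and dexamethasone. There was 1 array for each genotype and time (6 arrays in all), and how many embryos each culture held is not given in the sources used here. A difference at 1 time therefore has no replicate check. The p-values for genotype measure how well the times agree, and those for 12 h against 0 h how well the genotypes agree. Those for a difference in slope measure how closely the values follow straight lines over the hours. None of them measures how embryos vary.

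Glucuronidation, sulfation and glutathione conjugation attach a polar group to a lipid-soluble compound so that it can leave the cell in bile or blood. Ugt enzymes work in the endoplasmic reticulum with UDP-glucuronate, Sult enzymes in the cytosol with the sulfate donor PAPS, and Gst enzymes with glutathione. Carboxylesterases split esters and amides, including many prodrugs and some lipids, and aldehyde dehydrogenases turn aldehydes from alcohol, lipids, retinoids and amino acids into acids. Many of these genes are switched on as the liver matures around birth. Cnot3 belongs to the Cnot complex, which shortens poly(A) tails and so starts the decay of mRNAs.

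Promoters are shown for members on which the results turn. These are Sult1a1, with the lowest Cnot3KO value relative to control at 0 h among the members, and some of the neighbouring Ugt2b and Ces2 genes, described below. Ces2b has no promoter entry. Each line gives the 250 bases before the first listed RefSeq start of the gene (GRCm38.p6), written in the direction of transcription. Capitals mark matches, on either strand, to the 6 motifs searched: TGACNNNGC (antioxidant response element core), GCGTG (xenobiotic response element core), GTTAAT (HNF1 half-site), TGTTCT (glucocorticoid receptor half-site), AGGTCA (nuclear receptor half-site) and TTGCNNAA (C/EBP core).
Sult1a1 (chr7:126676419-126676668, minus strand): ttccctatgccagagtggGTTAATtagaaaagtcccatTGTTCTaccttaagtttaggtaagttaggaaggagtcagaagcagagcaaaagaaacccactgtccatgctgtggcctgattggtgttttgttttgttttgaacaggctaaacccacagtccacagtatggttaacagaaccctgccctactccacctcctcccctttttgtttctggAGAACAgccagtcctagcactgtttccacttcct
Ugt2b5 (chr5:87140341-87140590, minus strand): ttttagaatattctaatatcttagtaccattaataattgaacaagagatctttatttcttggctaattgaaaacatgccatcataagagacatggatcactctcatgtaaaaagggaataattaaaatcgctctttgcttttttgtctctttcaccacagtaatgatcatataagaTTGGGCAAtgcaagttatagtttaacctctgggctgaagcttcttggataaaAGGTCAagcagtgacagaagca
Ugt2b36 (chr5:87092556-87092805, minus strand): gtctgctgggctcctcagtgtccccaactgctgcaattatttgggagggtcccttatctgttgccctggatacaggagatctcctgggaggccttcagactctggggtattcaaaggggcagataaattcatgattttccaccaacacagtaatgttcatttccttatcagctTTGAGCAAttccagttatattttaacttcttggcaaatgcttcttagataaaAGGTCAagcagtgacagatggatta
Ugt2b35 (chr5:87000610-87000859, plus strand): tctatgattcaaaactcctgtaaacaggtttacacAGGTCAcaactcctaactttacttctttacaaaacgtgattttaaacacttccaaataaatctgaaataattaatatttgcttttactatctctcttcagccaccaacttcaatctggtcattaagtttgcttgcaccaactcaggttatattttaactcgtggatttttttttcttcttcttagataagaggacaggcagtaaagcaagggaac
Ces2a (chr8:104733753-104734002, plus strand): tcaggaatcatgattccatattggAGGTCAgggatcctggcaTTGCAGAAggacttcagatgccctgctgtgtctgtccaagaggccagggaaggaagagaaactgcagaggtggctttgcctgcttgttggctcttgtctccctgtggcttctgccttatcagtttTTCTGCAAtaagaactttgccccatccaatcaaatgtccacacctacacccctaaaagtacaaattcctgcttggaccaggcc
Ces2e (chr8:104926010-104926259, plus strand): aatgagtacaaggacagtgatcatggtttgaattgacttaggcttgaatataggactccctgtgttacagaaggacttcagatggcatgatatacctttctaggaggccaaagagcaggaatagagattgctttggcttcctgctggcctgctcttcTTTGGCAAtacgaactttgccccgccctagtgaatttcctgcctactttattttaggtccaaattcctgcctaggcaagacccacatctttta
Ces2f (chr8:104947106-104947355, plus strand): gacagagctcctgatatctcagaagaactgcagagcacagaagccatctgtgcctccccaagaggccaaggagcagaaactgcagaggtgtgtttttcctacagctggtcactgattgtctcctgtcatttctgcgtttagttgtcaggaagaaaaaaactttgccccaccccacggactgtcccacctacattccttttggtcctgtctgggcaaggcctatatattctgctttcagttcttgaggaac
Ces2g (chr8:104961468-104961717, plus strand): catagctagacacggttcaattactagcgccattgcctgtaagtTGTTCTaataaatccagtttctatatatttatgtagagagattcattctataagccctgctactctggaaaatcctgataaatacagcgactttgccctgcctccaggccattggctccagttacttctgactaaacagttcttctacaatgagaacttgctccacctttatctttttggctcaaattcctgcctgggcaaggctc
The Sult1a1 window holds 1 HNF1 half-site, which begins 232 bases before the start, and 2 glucocorticoid receptor half-sites, at 212 and 34 bases before it. Ugt2b5 and Ugt2b36 are laid out alike, with a C/EBP core at 74 and 77 bases and a nuclear receptor half-site at 22 and 25 bases before their starts, and an alignment of the pair has 160 identical bases (59.3% of the alignment). Ugt2b35 has the nuclear receptor half-site farther away, at 215 bases. The windows of Ugt2b1 and Ugt2b34 are not shown. That of Ugt2b1 holds none of the motifs, and that of Ugt2b34 holds only a glucocorticoid receptor half-site. Among the Ces2 windows, Ces2a and Ces2e hold C/EBP cores and Ces2f holds none of the motifs, which says only that these letters are not in this window. Identity between Ces2 windows lay between 45.1% (Ces2f and Ces2g) and 55.9% (Ces2a and Ces2f) of the alignment.

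Of the 66 members, 54 had a promoter entry. The C/EBP core was found in 13 of them (24.1%), against 9.55% of all 27025 promoters. The HNF1 half-site was found in 6 (11.1%) against 6.52%, and the nuclear receptor half-site in 9 (16.7%) against 13.8%. The xenobiotic core was found in 11 (20.4%) against 28.2%, the glucocorticoid half-site in 7 (13.0%) against 16.2%, and the antioxidant core in 4 (7.41%) against 10.1%. The 4 genes with an antioxidant core were Aldh1a2, Aldh9a1, Gsta3 and Gstm5. A match is a stretch of letters and not evidence that a factor binds there, and neighbouring genes of a family share sequence by descent.

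Values are given as intensities, the brightness that the authors' Robust Multi-array Average (RMA) gave each probe set, and differences as log2, where 1 is a doubling. Intensities of different genes are not comparable, because probes differ in brightness. RMA makes the arrays alike in distribution, so a change under ActD is relative to the other mRNAs on the same array, and a gain in relative intensity after transcription is blocked need not be a gain in mRNA. Where a gene has a pair of bright probe sets, the gap between them was scaled to estimate the SD of 1 probe set (log2, 4117 genes). This SD was 0.24 for the difference at 0 h. For the change over 12 h it was 0.25 in Cnot3KO and 0.51 in control cells, and for the difference between those changes 0.42. Of the 66 probe sets, 13 carry a suffix (_a, _s or _x) for sequence shared with other transcripts. The suffix _a, as for Sult1a1, Gstm6 and Aldh1l1, stands for transcripts of the same gene. The suffixes _s (Gstm3) and _x (Gstm1, Ces5a and Aldh18a1) stand for sequence that other genes may share, so signals of close relatives may be mixed there.

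The arrays were alike in brightness, with medians of 69.7 to 72.4. The Cnot3 probe set measured 174, 174 and 146 in Cnot3KO cells at 0, 6 and 12 h, against 296, 214 and 158 in control cells, 1.7-fold lower at 0 h (limma adjusted p = 0.182 over the times), while a second Cnot3 probe set differed by -0.05. Whether either lies in the deleted stretch is not known here. All 9 hepatocyte markers measured passed the filter, and their summed intensity was 131549 to 138122 in Cnot3KO cells and 128935 to 142707 in control cells. Nearly all of it is Alb, Ttr, Apoa1 and Afp, which lie near the brightest values of the arrays (33700 to 35600), so the sum does not show the dimmer markers. Cps1, the urea cycle enzyme among these markers, picked after its values were seen, measured 1471, 973 and 651 in Cnot3KO cells, against 4155, 2609 and 3215 in control cells (limma adjusted p = 0.0499). The other dimmer markers did not share this gap at 0 h. Hnf4a was higher in Cnot3KO cells, with 8232, 5304 and 4106, against 6531, 3579 and 2603 in control cells (limma adjusted p = 0.0788). At 0 h Apob differed by 0.27, Tat by -0.35 and Tdo2 by -0.01. At 12 h Apob lay lower, with 1568 in Cnot3KO and 2659 in control cells (-0.76), while Tat differed by -0.10 and Tdo2 by -0.13. Tdo2, at 22.3 to 26.8, lay close to the 20th percentile of the arrays (19.7 to 22.4), where a gap could hardly be seen. The 7 cholangiocyte markers measured summed to 34123 to 41356 in Cnot3KO cells and 19433 to 22734 in control cells, with Cftr under the filter. Most of this sum is Krt7, Krt19, Cldn4 and Cldn7. Of the 6 that passed the filter, 5 were higher in Cnot3KO cells at 0 h and 1 was lower, Sox9 (-0.28). At 12 h 5 were higher and 1 was lower, Epcam (-0.14). The 10 macrophage markers summed to 15364 to 17629 in Cnot3KO cells and 18705 to 22794 in control cells. Most of this sum is Lyz2 and Csf1r. At 0 h 8 of the 10 were lower in Cnot3KO cells, Vsig4 and Mrc1 the most (both -1.05). The 2 higher ones were Cd68 (0.20) and Clec4f (0.08). Endothelial (279 to 901 in Cnot3KO, 481 to 1385 in control cells), stellate (3009 to 4926 in Cnot3KO, 4921 to 6040 in control cells, with Lrat under the filter), erythroid (330 to 348 in Cnot3KO, 410 to 445 in control cells) and megakaryocyte markers (3107 to 3610 in Cnot3KO, 4186 to 6829 in control cells) also had lower ranges in Cnot3KO cells. In whole-culture RNA, fewer cells of a type and less RNA per cell cannot be told apart, and the part of these other cell types in the results below was not tested.

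To ask how the loss of Cnot3 altered the enzymes before transcription was blocked, Cnot3KO and control cells were compared at 0 h. Sult1a1 had the lowest value of the members, 2.98-fold under control, and Sult2b1 the highest, 2.20-fold above it. Of 9 Sult genes 3 were over 1.5-fold lower and 1 higher, of 7 Ugt genes 1 was lower, and of 20 Gst genes 6 were higher. Over 1.5-fold higher in Cnot3KO cells were 9 of the 66 members, where 6.71% of all genes were, and these were 6 Gst genes (Gsta4, Gstm1, Gstm3, Gstm4, Gstt2 and Gstt3), 2 Ces genes (Ces2b and Ces2f) and Sult2b1. Over 1.5-fold lower were 6, where 2.92% of all genes were, namely Sult1a1, Sult1d1, Sult2a8, Aldh6a1, Aldh1l1 and Ugt2b5. With the arrays quantile normalized again, 8 were higher and 8 lower. The median difference over the members was -0.03, against 0.03 over all genes. By family it was -0.31 for Sult, -0.24 for Ugt, -0.02 for Aldh, 0.07 for Ces and 0.13 for Gst, each with the same sign under both other scalings. At 6 h of ActD, 6 members were over 1.5-fold higher (all genes 17.8%) and 8 lower (all genes 7.13%). At 12 h, 7 members were higher (all genes 27.4%) and 19 lower (all genes 13.8%), and the members' median was -0.20 at 6 h and -0.33 at 12 h, against -0.05 and -0.03 over all genes.

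**Figure D1:**
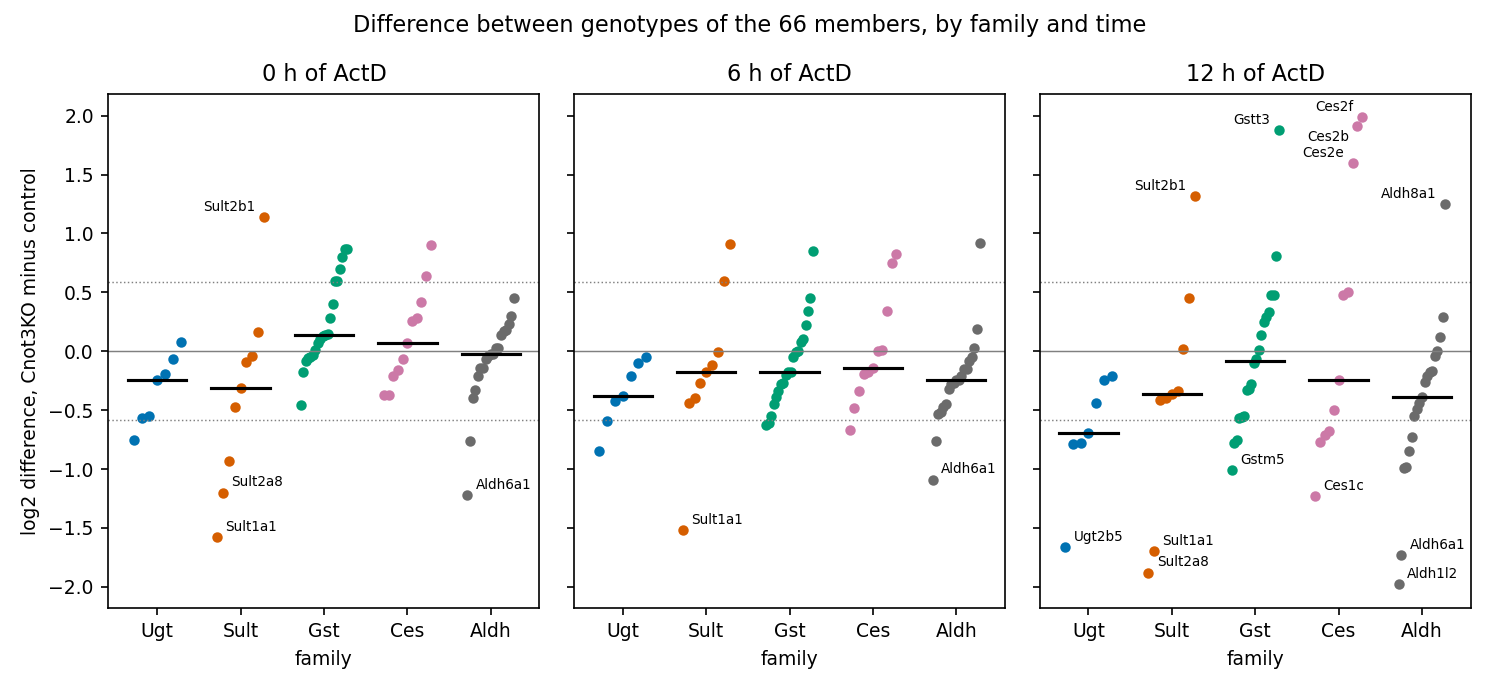
Log2 difference between Cnot3KO and control cells (vertical axis) of the 66 members by family (horizontal axis) at 0, 6 and 12 h of ActD; each point is a gene, black bars are family medians and dotted lines mark 1.5-fold. The Ugt median lies at -0.24 at 0 h and -0.69 at 12 h, and Ces2f, Ces2b, Gstt3 and Ces2e are the highest points at 12 h.

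Genotypes were then compared over the 3 times with limma, with genotype and time in the model and Benjamini-Hochberg adjustment over all genes. Only 3 members passed the threshold of 0.05: Sult2b1 was higher (1 of 66, where 0.703% of all genes passed), and Sult1a1 and Aldh6a1 were lower (2 of 66, where 0.285% of all genes passed). All 3 had the same adjusted p of 0.0499, just inside the threshold. With 1 time left out, the fit holds 4 arrays in place of 6. Without the 6 h arrays none of the 16499 genes passed, and 12 members and 2185 of all genes had an unadjusted p under 0.05. Without the 12 h arrays Sult1a1 was the only member to pass (lower), among 63 of all genes. Without the 0 h arrays 8 members were higher and 15 lower, where 5810 of all genes passed, a share like that of the members. The differences of the 3 called members had the same sign at each time. Unadjusted p-values were under 0.05 for 6 members that were higher and 18 that were lower, against 3700 and 1817 of all genes.

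Sult1a1, the phenol sulfotransferase of liver, measured 1934, 2380 and 2349 in Cnot3KO cells at 0, 6 and 12 h, against 5768, 6848 and 7627 in control cells. Every Cnot3KO array lay under every control array. The limma difference over the times was -1.60 ± 0.14 (log2, SE, adjusted p = 0.0499), and only 12 of all genes had a lower value than its -1.58 at 0 h. Its probe set carries the suffix _a, so it has no value where probe sets with a suffix are left out. Other sulfotransferases of small phenols and amines lay near or under control at 0 h. Sult1d1, which in mouse sulfates catecholamines, measured 53.9, 73.3 and 75.2 in Cnot3KO cells, against 103, 83.1 and 99.2 in control cells. The gap was 1.90-fold at 0 h and smaller at the later times, the limma difference was -0.50 ± 0.19 (adjusted p = 0.129), and its second, dimmer probe set also lay lower at 0 h, by 0.73 (a difference of -0.73). Sult1b1, known for the sulfation of thyroid hormones, measured 27.4, 52.7 and 69.9 in Cnot3KO cells, against 28.2, 34.8 and 51.3 in control cells, with no gap at 0 h.

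The steroid sulfotransferases went in both directions. Sult2b1, which sulfates cholesterol and pregnenolone, measured 295, 294 and 239 in Cnot3KO cells, against 134, 157 and 95.9 in control cells. All Cnot3KO arrays exceeded all control arrays, by 2.20-fold at 0 h and by 1.12 ± 0.15 over the times (log2, SE, limma adjusted p = 0.0499). Sult2a8, a bile acid sulfotransferase of mouse liver, measured 23.1, 26.7 and 24.4 in Cnot3KO cells, against 53.3, 35.2 and 89.9 in control cells. The Cnot3KO values are close to the 20th percentile of the arrays (19.7 to 22.4), and the limma difference of -1.16 ± 0.29 did not pass (adjusted p = 0.0653). Sult5a1 differed by -0.09 at 0 h, and the other 3 Sult genes lay between -0.47 (Sult1c2) and 0.16 (Sult4a1).

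All 5 Ugt2b genes lay under control at all 3 times (4 of 5 when the arrays were quantile normalized again), as 4823 of the 16499 genes did. They glucuronidate steroids, bile acids and many drugs. All 5 lie in 1 run on chromosome 5 with few genes between them. Ugt2b5 measured 453, 629 and 608 in Cnot3KO cells, against 759, 1138 and 1916 in control cells. Its difference was -0.75 at 0 h and -1.66 at 12 h, and over the times -1.09 ± 0.22 (limma adjusted p = 0.0541). The Cnot3KO values levelled off after 6 h while those of control kept climbing. Ugt2b36 measured 2140, 2780 and 3156 in Cnot3KO cells, against 3186, 4193 and 5413 in control cells, and Ugt2b35 measured 1862, 2330 and 2682 in Cnot3KO cells, against 2724, 3116 and 3635 in control cells. The gaps at 0 h were 1.49-fold and 1.46-fold, just under the limit of 1.5, and over the times -0.65 ± 0.14 and -0.47 ± 0.14 (limma adjusted p = 0.0571 and 0.0826). Ugt2b34 (-0.07) and Ugt2b1 (-0.24) differed little at 0 h. Of the Ugt3a genes, which use other sugar donors, Ugt3a1 differed by 0.08 and Ugt3a2 by -0.19, both at low intensities of 28.3 to 58.3. No Ugt gene passed the test of genotype, and 4 had an unadjusted p under 0.05, all lower.

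**Figure D2:**
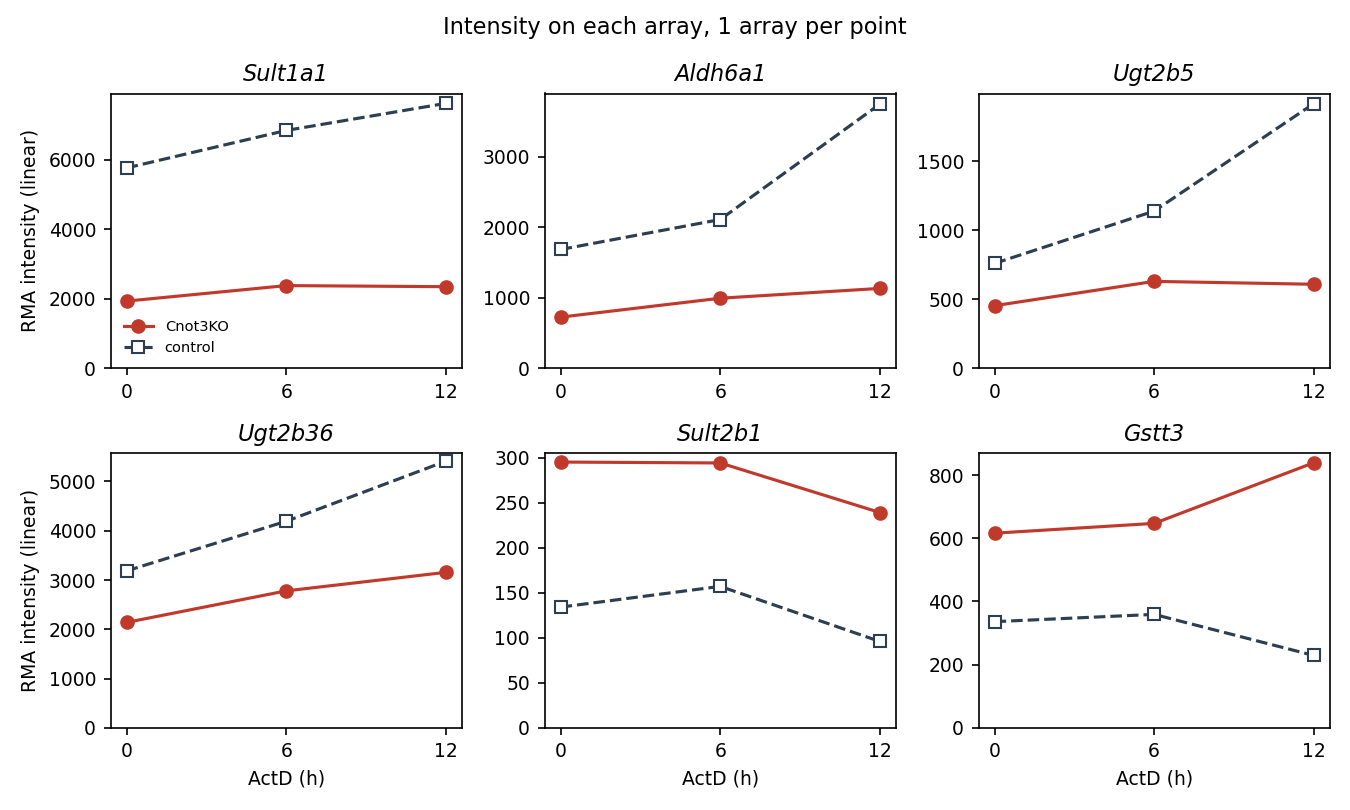
RMA intensity (vertical axis, linear) at 0, 6 and 12 h of ActD (horizontal axis) for 6 members, with filled circles for Cnot3KO and open squares for control; each point is 1 array, so there are no error bars. Sult1a1, Aldh6a1, Ugt2b5 and Ugt2b36 lie lower and Sult2b1 and Gstt3 higher in Cnot3KO cells at every time.

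Among the glutathione S-transferases, 14 of 20 genes had a positive difference at 0 h, as 9026 of the 16499 genes did. None was over 1.5-fold lower (all genes 2.92%). Gsta4, known for the conjugation of the lipid aldehyde 4-hydroxynonenal, measured 4001, 3568 and 4335 in Cnot3KO cells, against 2302, 2820 and 3108 in control cells. Every Cnot3KO array exceeded every control array, and the limma difference of 0.54 ± 0.16 did not pass (adjusted p = 0.0819). The theta-class gene Gstt3 measured 616, 647 and 839 in Cnot3KO cells, against 336, 359 and 229 in control cells. It was 1.83-fold higher at 0 h and differed by 1.88 at 12 h, with a limma difference of 1.20 ± 0.24 (adjusted p = 0.0541). Its neighbour Gstt2 measured 1320, 1299 and 1494 in Cnot3KO cells, against 813, 949 and 853 in control cells, while Gstt1 of the same run on chromosome 10 lay lower in Cnot3KO cells at each time, with 1924, 2183 and 2770, against 2181, 2771 and 4087 in control cells.

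The mu class had members over 1.5-fold higher at 0 h but none at 6 or 12 h. Gstm4 measured 530, 553 and 617 in Cnot3KO cells, against 291, 524 and 492 in control cells, 1.83-fold higher at 0 h. Gstm3 measured 690, 596 and 649 in Cnot3KO cells, against 457, 675 and 789 in control cells. For both, on these probe sets, the control value at 0 h was the one that lay apart, and at 6 h the differences were 0.08 and -0.18. Gstm1 behaved alike on its brightest probe set, with differences of 0.60, 0.00 and 0.25 at 0, 6 and 12 h, but its 4 probe sets gave 0.60, 0.65, 0.16 and -0.11 at 0 h. A second, dimmer Gstm3 probe set, without a suffix, was higher in Cnot3KO cells at each time, by 0.84, 0.22 and 0.36. Gsta3, an alpha-class enzyme of liver, was the lowest Gst gene at 0 h, with 3241, 3638 and 4163 in Cnot3KO cells, against 4457, 4783 and 6090 in control cells (limma difference -0.47 ± 0.14, adjusted p = 0.0834). The other 11 Gst genes lay between -0.08 (Gstm2) and 0.40 (Gsta2) at 0 h. The pi-class Gstp1 measured 21694, 19960 and 21072 in Cnot3KO cells, against 21567, 20152 and 20966 in control cells, and differed by at most 0.01 at any time. No Gst gene passed the test of genotype, and 3 with a higher and 4 with a lower value had an unadjusted p under 0.05.

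Of the aldehyde dehydrogenases, Aldh6a1 and Aldh1l1 were over 1.5-fold lower at 0 h and none was over 1.5-fold higher. Aldh6a1, the mitochondrial enzyme that oxidises methylmalonate semialdehyde in the breakdown of valine and thymine, measured 725, 993 and 1132 in Cnot3KO cells, against 1684, 2109 and 3745 in control cells. The ranges did not overlap, the gap was 2.32-fold at 0 h, and the limma difference was -1.34 ± 0.18 (adjusted p = 0.0499). Aldh1l1, which oxidises formyl-tetrahydrofolate in the cytosol, measured 716, 627 and 688 in Cnot3KO cells, against 1212, 1059 and 1367 in control cells. Its limma difference of -0.83 ± 0.14 did not pass (adjusted p = 0.0526), and its second probe set, dim at 28.8 in Cnot3KO and 25.9 in control cells, differed by 0.15 at 0 h, in the other direction. Aldh2, the mitochondrial enzyme that clears acetaldehyde, measured 1013, 1100 and 1320 in Cnot3KO cells, against 1271, 1593 and 2376 in control cells. It lay lower at each time (-0.33, -0.53 and -0.85; limma adjusted p = 0.0797), but a second, dimmer probe set above the array medians differed by 0.19 at 0 h and by 0.59 at 12 h.

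The retinaldehyde dehydrogenase Aldh1a1 measured 1406, 1767 and 2196 in Cnot3KO cells, against 1254, 1865 and 2533 in control cells, and differed by 0.17 at 0 h. Its close relative and neighbour Aldh1a7 measured 1651, 1736 and 1777 in Cnot3KO cells, against 1728, 2374 and 3509 in control cells, with a gap only at the later times. Aldh7a1, which acts in lysine breakdown, was alike at 0 h (1658 in Cnot3KO and 1683 in control cells). Aldh3a2, which oxidises fatty aldehydes, differed by 0.03 at 0 h, Aldh16a1 by 0.18 and the mitochondrial Aldh1b1 by -0.21. Aldh18a1, which makes the precursor of proline, had the highest value of the family at 0 h, with 2024 in Cnot3KO and 1479 in control cells (0.45), and all of its 5 probe sets were higher, by 0.12 to 0.67. Aldh8a1 was lower in Cnot3KO cells at 0 h by a difference of -0.40, and the other 8 Aldh genes lay between -0.14 (Aldh9a1 and Aldh1l2) and 0.30 (Aldh1a2).

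Of the 11 carboxylesterases, 2 were past 1.5-fold at 0 h. Ces2b (0.90) and Ces2f (0.64) were higher, at intensities of 32.9 and 30.6 in Cnot3KO cells and of 17.7 and 19.6 in control cells, close to the 20th percentile. Ces1c and Ces2g lay lowest, both at -0.37, and the other 7 Ces genes lay between -0.21 (Ces5a) and 0.42 (Ces1e). None passed the test of genotype, and at an unadjusted p under 0.05, 2 were higher and 2 lower.

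To follow how the members behaved once transcription was blocked, each 12 h array was set against the 0 h array of its genotype. The carboxylesterases Ces2b, Ces2e and Ces2g, the glutathione S-transferases Gstm6 and Gstk1, Sult1b1 and Ugt2b1 rose in relative intensity. Of the 66 members, 13 were over 1.5-fold higher at 12 h in Cnot3KO cells (all genes 9.72%) and 2 lower (all genes 10.5%). In control cells 33 were higher (all genes 18.9%) and 1 lower (all genes 23.2%). The median change was 0.28 in Cnot3KO and 0.57 in control cells, against 0.08 and 0.15 over all genes. Centring the arrays on ribosomal protein genes moves the medians over all genes to -0.04 in Cnot3KO and -0.05 in control cells and those of the members to 0.17 and 0.36, with 8 members higher in Cnot3KO and 22 in control cells. In the limma model, 7 members were higher at 12 h than at 0 h over both genotypes (all genes 2.24%) and none was lower (all genes 4.53%). At an unadjusted p under 0.05, 2 members and 2606 of all genes were lower. The 7 higher members were Ces2b, Ces2e, Ces2g, Gstk1, Gstm6, Sult1b1 and Ugt2b1. Without the 6 h arrays none of the 16499 genes passed, and 20 members and 2879 of all genes had an unadjusted p under 0.05.

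The Ces2 genes, which code for esterases known for splitting prodrugs and acylglycerols, lie in 1 run of 5 on chromosome 8 and include the 3 members with the largest mean change over 12 h (Ces2e, Ces2b and Ces2g). Ces2e measured 43.3, 94.4 and 308 in Cnot3KO cells at 0, 6 and 12 h, against 35.7, 56.3 and 102 in control cells. That is 7.11-fold more at 12 h than at 0 h in Cnot3KO and 2.84-fold more in control cells, and the limma change over both was 2.17 ± 0.33 (adjusted p = 0.0295). Ces2b measured 32.9, 57.2 and 198 in Cnot3KO cells, against 17.7, 32.2 and 52.8 in control cells. It was higher in Cnot3KO cells at every time. Its control value at 0 h lies under the 20th percentile of that array (19.9), so folds taken against it, 1.86-fold at 0 h and 2.99-fold over 12 h in control cells, are uncertain, while the change in Cnot3KO cells was 6.03-fold (limma 2.08 ± 0.30, adjusted p = 0.0279). Among all genes, 10 had a larger mean change over 12 h than Ces2e and 16 a larger one than Ces2b.

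Ces2g measured 28.3, 72.9 and 125 in Cnot3KO cells, against 36.7, 57.7 and 88.3 in control cells, and lay lower in Cnot3KO cells at 0 h and higher afterwards (limma change 1.70 ± 0.25, adjusted p = 0.0294). Ces2f measured 30.6, 27.3 and 113 in Cnot3KO cells, against 19.6, 27.4 and 28.5 in control cells. Its gain rests on the single Cnot3KO array at 12 h, it did not pass (adjusted p = 0.150), and its second, dim probe set gave changes of 0.30 in Cnot3KO and 0.25 in control cells. Ces2a went against its neighbours, with 164, 198 and 224 in Cnot3KO cells and 156, 226 and 384 in control cells, a 1.36-fold gain in Cnot3KO and a 2.46-fold gain in control cells. Ces2b, Ces2e, Ces2f and Ces2g start close to the 20th percentile of the arrays, and Ces2b and Ces2f were under it on the control array at 0 h.

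**Figure D3:**
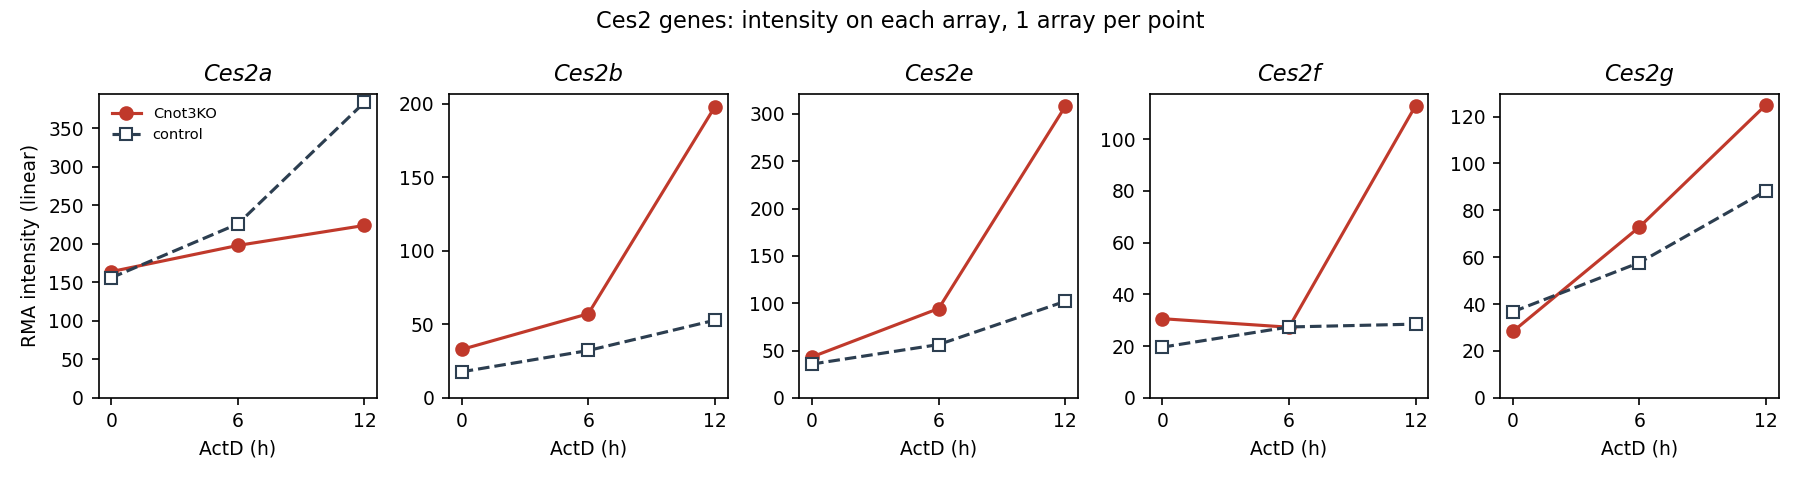
RMA intensity (vertical axis, linear) of the 5 Ces2 genes at 0, 6 and 12 h of ActD (horizontal axis), with filled circles for Cnot3KO and open squares for control, 1 array per point. Ces2b, Ces2e, Ces2f and Ces2g end higher in Cnot3KO cells (198, 308, 113 and 125) and Ces2a ends lower (224 in Cnot3KO, 384 in control cells).

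The other 4 genes that passed gained in both genotypes. Ugt2b1 measured 28.5, 45.8 and 69.4 in Cnot3KO cells, against 33.7, 47.5 and 120 in control cells (limma change 1.56 ± 0.23, adjusted p = 0.0287). Gstm6 measured 158, 243 and 345 in Cnot3KO cells, against 142, 276 and 313 in control cells, and its 2.18-fold change in Cnot3KO and 2.20-fold change in control cells were nearly equal (limma 1.13 ± 0.18, adjusted p = 0.0336). Gstk1, the kappa-class transferase of mitochondria and peroxisomes, measured 112, 145 and 190 in Cnot3KO cells, against 103, 199 and 281 in control cells (limma 1.10 ± 0.23, adjusted p = 0.0487). Sult1b1, whose intensities are given above, had a limma change of 1.11 ± 0.22 (adjusted p = 0.0448). Of these 4 genes, Sult1b1 was the one with the larger change in Cnot3KO cells (2.55-fold, against 1.82-fold in control cells).

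Aldh8a1, Aldh18a1, Aldh1b1, Aldh1a2, Sult2b1 and Gstp1 were the members with lower values at 12 h than at 0 h in both genotypes. Aldh8a1, which acts in the kynurenine pathway, measured 226, 218 and 142 in Cnot3KO cells, against 298, 115 and 59.9 in control cells. That is 1.59-fold less at 12 h in Cnot3KO and 4.97-fold less in control cells, but its second probe set gave -0.59 in Cnot3KO and -0.68 in control cells, with no such gap. Aldh18a1 measured 2024, 1452 and 866 in Cnot3KO cells, against 1479, 1269 and 1040 in control cells, 2.34-fold less at 12 h in Cnot3KO and 1.42-fold less in control cells. All 5 of its probe sets had the more negative change in Cnot3KO cells, with differences of -0.61 to -0.85. Neither gene passed (limma adjusted p = 0.0792 and 0.0744). Aldh1b1 had changes of -0.52 in Cnot3KO and -0.19 in control cells.

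The change over 12 h was then compared between genotypes. In most members the change was lower in Cnot3KO than in control cells, while Ces2b, Ces2e, Ces2f, Ces2g, Gstt3 and Aldh8a1 lay furthest on the other side. The change was lower in Cnot3KO for 50 of the 66 members, as it was for 8721 of the 16499 genes, and the median difference between the changes was -0.32, against -0.04 over all genes. It exceeded 1.5-fold upwards in 6 members (all genes 22.9%), which were Aldh8a1, Ces2f, Ces2e, Ces2b, Gstt3 and Ces2g, and downwards in 13 (all genes 12.3%). Tested as a difference in slope with limma, no member passed (0 of 66, where 0% of all genes passed). At an unadjusted p under 0.05, 4 members lay above and 9 below control, against 2107 and 817 of the 16499 genes. By family the median difference was -0.37 for Gst and Aldh, -0.32 for Ugt, -0.16 for Ces and -0.10 for Sult, the last at 0.00 when the arrays were quantile normalized again.

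**Figure D4:**
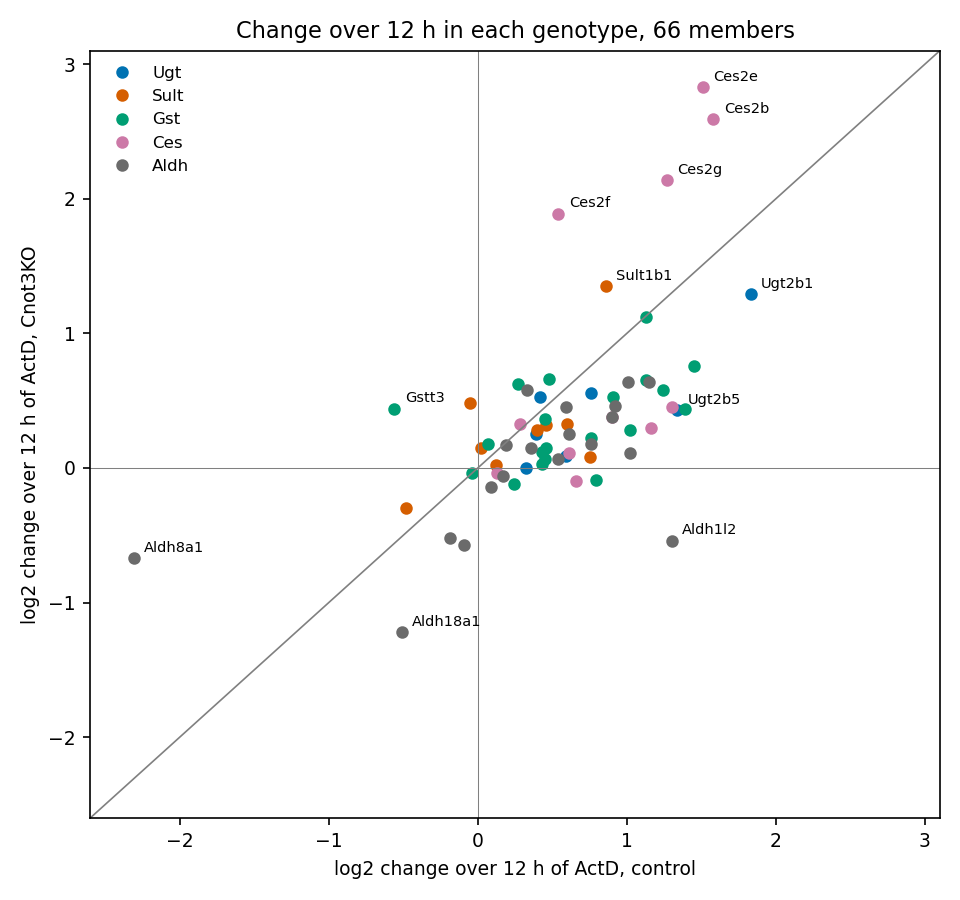
Log2 change over 12 h of ActD in Cnot3KO (vertical axis) and control cells (horizontal axis) for the 66 members, coloured by family, 1 array per genotype and time; the diagonal marks equal change. Most points lie below the diagonal (50 of 66), while Ces2b, Ces2e, Ces2f and Ces2g lie above it.

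Aldh1l2, the mitochondrial counterpart of Aldh1l1, had the lowest difference of the members. It measured 316, 344 and 218 in Cnot3KO cells, against 348, 476 and 858 in control cells. The genotypes were alike at 0 h (-0.14) and apart at 12 h (-1.98), the difference between the changes was -1.84, and only 16 of all genes had a lower one (limma slope, adjusted p = 0.180). Aldh1a7 (-0.92), Ugt2b5 (-0.91) and Ces1c (-0.86) came next among the named members outside the mu class. Ces1c, a carboxylesterase secreted into mouse plasma, measured 76.6, 85.9 and 94.0 in Cnot3KO cells, against 99.0, 137 and 221 in control cells, and its relative Ces5a measured 493, 495 and 531 in Cnot3KO cells, against 572, 690 and 872 in control cells. In both, Cnot3KO cells lay lower at every time and the distance grew.

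In the mu class all 7 genes had the lower change in Cnot3KO cells (6 of 7 after centring on ribosomal protein genes), Gstm6 by the least (-0.01), with a median change of 0.28 in Cnot3KO and 1.02 in control cells. They lie in 1 run on chromosome 3 and share sequence, so they are not independent measurements. Gstm5 measured 946, 1290 and 1282 in Cnot3KO cells, against 985, 1889 and 2579 in control cells, and Gstm2 measured 157, 199 and 235 in Cnot3KO cells, against 167, 308 and 395 in control cells. Both were alike at 0 h and lower in Cnot3KO cells at 6 and 12 h, with differences between the changes of -0.95 and -0.67. Gsto1, an omega-class enzyme that reduces dehydroascorbate, gained somewhat more in Cnot3KO cells, with 9078, 10467 and 14380 there and 8453, 10815 and 11770 in control cells (0.19). Its second probe set differed by -0.47 at 0 h, against 0.10 for the first.

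**Figure D5:**
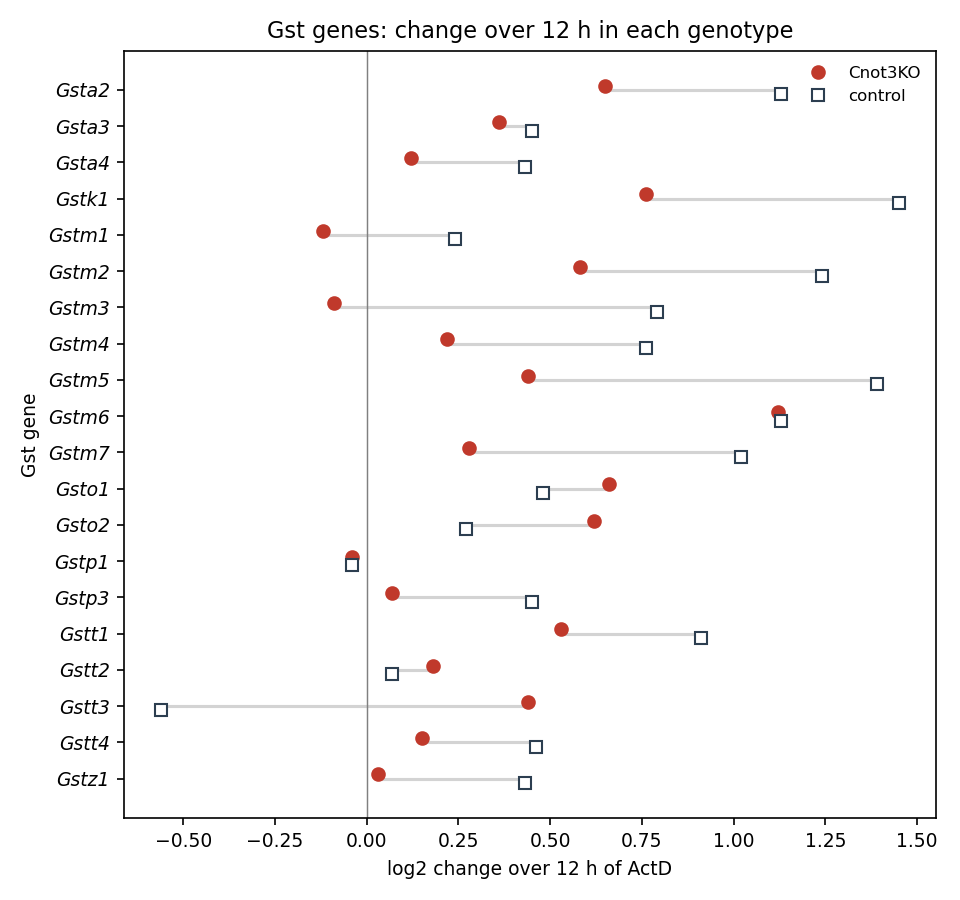
Log2 change over 12 h of ActD (horizontal axis) of the 20 Gst genes (vertical axis), with filled circles for Cnot3KO and open squares for control, 1 array per genotype and time; grey lines join the genotypes. The mu genes apart from Gstm6 lie left in Cnot3KO cells, Gstp1 stays near -0.04 in both, and Gstt3 is reversed (0.44 in Cnot3KO, -0.56 in control cells).

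Other genes of these pathways were taken from 7 lists. Of 12 measured genes that supply or use glutathione, 3 were over 1.5-fold higher at 0 h (all genes 6.71%) and none was lower (all genes 2.92%): Slc7a11, the cystine importer (1.34), Chac1, which degrades glutathione (1.33), and Gclc, the rate-limiting ligase of glutathione synthesis (0.95). Chac1 passed the test of genotype, with a limma difference of 1.14 (adjusted p = 0.0499), a call that, like all others of this test, is lost with centring on ribosomal protein genes, with the filter at the 50th percentile or without a filter. It fell over 12 h (adjusted p = 0.0153). Gclc measured 14925, 7936 and 7154 in Cnot3KO cells, against 7732, 3402 and 1340 in control cells. It fell over 12 h (adjusted p = 0.0479), and Mgst2, a membrane-bound transferase, rose (adjusted p = 0.0479); Gclc and Mgst2 were picked after their values were seen. Of 9 genes for UDP-glucuronate and PAPS supply, only the sulfate transporter Slc26a2 was over 1.5-fold higher at 0 h (0.83) and none was lower, with the UDP-sugar transporter Slc35d1 at -0.52.

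Of 12 other conjugation enzymes 1 was over 1.5-fold higher at 0 h, the arylamine acetyltransferase Nat2 (0.66), and 2 were lower, the glycine methyltransferase Gnmt (-0.85) and the bile acid conjugating enzyme Baat (-0.84). Of 11 other hydrolases none was higher and 1 was lower, the paraoxonase Pon1 (-0.70), followed by Pon2 (-0.41), and at 12 h 6 of the 11 were over 1.5-fold lower (all genes 13.8%). Among 16 alcohol and retinal oxidoreductases, Nqo1 was higher (0.98) and the retinol dehydrogenase Rdh7 lower (-1.30; limma adjusted p = 0.0499 over the times). Of 11 transporters of conjugates and bile acids, Abcc4 was higher (0.73), and the uptake carrier Slco1b2 (-1.36) and the bile salt export pump Abcb11 (-0.60) were lower. At 12 h all 11 lay under control, 4 of them over 1.5-fold (all genes 13.8%). Of 14 regulators none differed over 1.5-fold at 0 h, with Ppara at -0.46 and the glucocorticoid receptor gene Nr3c1 at 0.37. At 12 h, 10 of the 14 were over 1.5-fold higher in Cnot3KO cells (all genes 27.4%). Over both genotypes Ppara and Hnf4a fell by 12 h (limma adjusted p = 0.0339 and 0.0305), and Hnf4a, Nat2 and Abcb11 were picked after their values were seen.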

How the data were processed

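Total RNA of cultured fetal hepatocytes was hybridised to Affymetrix Mouse Genome 430 2.0 arrays, 1 array for each genotype and time of ActD. The authors summarised each probe set with RMA, of which no version is given in the sources used here, and deposited linear intensities (45037 probe sets, 0 missing values), of which log2 was taken here. Names come from the platform annotation, in which 34945 probe sets carry 1 symbol, 932 several and 9160 none. Only probe sets with 1 symbol were used, with the brightest over the arrays for each gene.

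Of 18193 genes, 16499 exceeded the 20th percentile of an array at least once. Differences at 1 time were counted past 1.5-fold without a test. Over the 6 arrays, limma 3.58.1 (lmFit and eBayes, R 4.3.3) fitted genotype and time, or genotype, hours and their product, with 2 residual degrees of freedom each, and p-values were adjusted over all genes (threshold 0.05). The fits were tested on simulated data. The number of arrays limits the precision, and intensities carry no read depth. Alternatives were other filters (none, or the 50th percentile), averaging all probe sets of a gene, no probe sets with a suffix for shared sequence, centring on 45 ribosomal protein genes, a repeated quantile normalization, an intensity trend in eBayes, fold limits of 1.3 and 2, and leaving out each time.

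Members, lists and motifs were chosen with earlier results of these data known. Within each family, members above the median of an array on at least 1 array were named when among the 3 highest or 3 lowest differences at 0 h, the 3 largest gains or losses over 12 h, or the 2 largest or smallest differences between the changes, as was each member past a test, Aldh2, Ces2a and 2 genes of each list. Gstt2, Gstm1 and others outside this rule were picked after their values were seen. Promoters are from RefSeq (GRCm38.p6), and 12 members had no entry. All 66 symbols were found in RefSeq's gene table, and members with at most 2 protein-coding genes between them were called a run. Sequences of 3′ ends and proteins were not analysed here.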

Additional observations from a re-analysis of the deposited data

Results flagged for a closer look

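For 4 members, on the probe sets used, the change under ActD went in opposite directions in Cnot3KO and control cells at both 6 and 12 h. With 1 array per genotype and time the opposition itself was not tested, and the limma test of slope passed for none of them. Such an opposition at both times was seen in 6.06% of the members and in 13.8% of all genes (2275 of 16499). The difference between the changes, Cnot3KO minus control, was -0.88 for Gstm3 (slope adjusted p = 0.249), -0.36 for Gstm1, -0.23 for Aldh1a3 and 0.53 for Sult1d1 (slope adjusted p = 0.462). For Gstm3 the changes at 6 and 12 h were -0.21 and -0.09 in Cnot3KO cells, against 0.56 and 0.79 in control cells, and a second probe set gave 0.00 at 12 h in Cnot3KO and 0.47 in control cells. For Sult1d1 they were 0.44 and 0.48 in Cnot3KO cells, against -0.30 and -0.05 in control cells, and a second probe set gave 0.22 at 12 h in Cnot3KO and -0.42 in control cells. Gstm1 and Aldh1a3 had changes at 12 h of -0.12 and -0.14 in Cnot3KO cells, against 0.24 and 0.09 in control cells. All were below the SD of 1 probe set (0.25 in Cnot3KO and 0.51 in control cells). The other Gstm1 probe sets showed no opposition at 12 h, with 0.01, 0.18 and 0.20 in Cnot3KO cells, against 0.58, 0.62 and 0.71 in control cells. The other Aldh1a3 probe sets gave 0.05 and -0.59 in Cnot3KO cells, against 0.44 and 0.03 in control cells.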

How the results depend on the processing

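The counts at 0 h follow the fold limit: with a limit of 2, 1 member was higher and 3 lower, and with 1.3, 12 were higher and 11 lower. The genotype calls rest on adjusted p-values at the threshold. As reported, 1 member was higher and 2 were lower. No member and no other gene passed with centring on ribosomal protein genes, with the filter at the 50th percentile or with no filter. With centring, 23 of 66 members and 5352 of 16499 genes had an unadjusted p under 0.05. With the filter at the 50th percentile, 19 of 53 members and 4887 of 12820 genes did, and with no filter 26 of 76 and 5761 of 18193. With an intensity trend 4 members were higher and 8 lower, and 2063 of 16499 genes passed, against 163 as reported. With all probe sets of a gene averaged 4 members were higher and 6 lower, and 1625 of 16219 genes passed. Without suffixed probe sets 1 member was higher and 1 lower, since Sult1a1 drops out, and 649 of 14866 genes passed. Leaving out each time gave 0 to 8 higher and 0 to 15 lower (without the 6 h arrays 0 and 0, without the 12 h arrays 0 and 1, without the 0 h arrays 8 and 15). For 12 h against 0 h, the 7 higher members became 13, and the 0 lower became 1, with all probe sets of a gene averaged, and 0 were higher without the 6 h arrays. Of all genes, 1116 of 16499 passed as reported, 1651 of 16219 with averaging and 0 of 16499 without the 6 h arrays. Aldh1l1 at 0 h reversed to 0.15 without suffixed probe sets, against -0.76, where only its dim probe set is left. The cause of the other shifts was not tested. No member passed the slope test under any setting run. No paired analysis was possible because the labels carry no replicate numbers and each group is 1 array. The slope without a time, and the 12 h change without its own arrays, could not be fitted.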
